A study of Mus musculus with 3 samples.

Results

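The miR-7 family was followed through early postnatal development of the mouse retina. Its members were taken by name, as every listed mature form of miR-7a or miR-7b. There were 5 of them (mmu-miR-7a-5p, mmu-miR-7b-5p, mmu-miR-7a-1-3p, mmu-miR-7a-2-3p and mmu-miR-7b-3p) among the 1915 mature miRNAs listed. Small RNAs were sequenced from whole retinas of C57BL/6 mice (C57BL/6J in the study's methods) aged 1 day (P1), 7 days (P7) or 17 days (P17), and the labels give no genotype or treatment that separates the ages. Retinas from 5 eyes were pooled for each library, with 1 library per age, so replicate error is unknown for every difference between ages and no test of age was possible. The levels are RPM, the reads of a miRNA scaled to a fixed total of miRNA reads, with 95% Wilson intervals. All intervals cover counting error only and treat each read as independent. PCR copies are not independent molecules, so the intervals may be too narrow even for that error. In bulk retina, fewer cells of a type and less RNA per cell cannot be told apart.

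A miRNA hairpin is cut into a 5p and a 3p strand, and the strand that is kept in Argonaute, the guide, pairs with messenger RNAs through its seed (bases 2 to 8). MiR-7 is an ancient miRNA whose guide is the 5p strand, and it is known for its presence in neurons and neuroendocrine cells and for its part in photoreceptor differentiation in the fly eye. In mammals it is tied to other non-coding RNAs. The circular RNA Cdr1as carries many miR-7 sites, miR-671 directs the cutting of Cdr1as, and the long non-coding RNA Cyrano directs the decay of miR-7.

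The mature sequences from RefSeq (GRCm38.p6), which were found for all 5 members, are shown to set out which forms share a seed and how near they are to each other. Capitals mark the seed, and sequences run from 5′ to 3′.
mmu-miR-7a-5p: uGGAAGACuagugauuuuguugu
mmu-miR-7b-5p: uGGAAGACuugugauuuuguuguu
mmu-miR-7a-1-3p: cAACAAAUcacagucugccaua
mmu-miR-7a-2-3p: cAACAAGUcccagucugccaca
mmu-miR-7b-3p: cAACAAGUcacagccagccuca

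Both 5p forms had the seed GGAAGAC, and no other listed miRNA with a RefSeq sequence had it. They differed by A10U, counted from 1 at the 5′ end with miR-7a-5p as the reference, and by 1 more base at the 3′ end of miR-7b-5p. The 3p forms fell into 2 seed groups. MiR-7a-1-3p alone had AACAAAU, whereas miR-7a-2-3p and miR-7b-3p shared AACAAGU, the difference being A7G. Outside the seed, miR-7a-2-3p differed from miR-7a-1-3p by A10C and U21C. MiR-7b-3p differed from miR-7a-2-3p by C10A, U14C, U16A and A20U. The rule by which the authors counted reads that match more than 1 entry is not given in the sources used here, so reads of the near-identical 5p forms may have been split between them.

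The family comes from 3 loci on GRCm38, the build of the authors' alignment. Their hairpins are shown because 2 of them give the same 5p strand and can be told apart only by their 3p strands. Capitals mark the mature strands.
Mir7-1: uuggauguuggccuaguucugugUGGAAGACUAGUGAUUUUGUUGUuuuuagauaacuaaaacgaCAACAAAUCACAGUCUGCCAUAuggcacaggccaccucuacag
Mir7-2: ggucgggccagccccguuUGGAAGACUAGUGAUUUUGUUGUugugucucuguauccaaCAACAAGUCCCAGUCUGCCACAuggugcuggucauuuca
Mir7b: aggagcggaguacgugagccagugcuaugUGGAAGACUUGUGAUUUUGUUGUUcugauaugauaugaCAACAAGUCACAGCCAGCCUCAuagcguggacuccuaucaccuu

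Mir7-1 (ENSMUSG00000065434.1) is at chr13:58392779-58392886 on the minus strand. It lies in the last intron of 12 annotated transcripts of Hnrnpk, a gene for an RNA-binding protein on the same strand. Mir7-2 (ENSMUSG00000065609.1) is at chr7:78888277-78888373 on the plus strand, between annotated genes, with the start of Aen 7481 bases away. Mir7b (ENSMUSG00000065491.1) is at chr17:56242988-56243098 on the plus strand. No annotated gene overlaps it, and the end of the long non-coding RNA AC026385.1 on the same strand is 183 bases away. MiR-7a-5p is therefore the product of both Mir7-1 and Mir7-2, whereas each of the other 4 mature forms has 1 locus.

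The libraries held 11426320 to 12759995 miRNA reads, so 1 read was worth 0.0784 to 0.0875 RPM, and 3 reads, taken as the smallest level that the depth could show, were 0.235 to 0.263 RPM. Since RPM is a share of the miRNA reads, it moves when an abundant miRNA changes. The photoreceptor and sensory miRNAs miR-182-5p, miR-183-5p and miR-96-5p together had 77854 RPM at P1, compared with 304394 at P7 and 301141 at P17. Their part in the changes of miR-7 was not tested, but ratios of reads within a library, given below, do not depend on it.

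The family as a whole took 5.77% of all miRNA reads at P1 (95% Wilson interval 5.76 to 5.79), compared with 2.09% at P7 (2.09 to 2.10) and 1.79% at P17 (1.78 to 1.80). With RPM most of the drop lay in the first week. The log2 ratio of the summed reads was -1.46 between P1 and P7 but -0.23 between P7 and P17, and the P17 level was 3.23-fold below the P1 level. These sizes depended on the scaling, with steps of -0.50 and -0.14 for median-of-ratios factors. They were -0.84 and -0.47 for a total that leaves out the leading miRNAs, miR-7a-5p among them. MiR-7a-5p made up 96.8% of the family's reads at P1, compared with 96.2% at P7 and 93.3% at P17, so the sum largely follows this strand.

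MiR-7a-5p, the guide strand of both miR-7a hairpins, had 55878 RPM at P1 (55745 to 56011), followed by 20143 at P7 (20066 to 20220) and, at P17, 16693 (16619 to 16766). With RPM it was thus high at P1 and much lower at P7 and P17. On the log2(RPM + 1) scale, which understates changes of rare miRNAs, its change was -1.47 between P1 and P7, then -0.27, and -1.74 from P1 to P17, a 3.35-fold decrease. The drop from P1 was smaller with other scalings. Relative to P1, median-of-ratios factors put the P7 level at -0.51 and the P17 level at -0.70, both under 2-fold. A total without the leading miRNAs put them at -0.85 and -1.36. MiR-7a-5p held place 4 of all miRNAs at P1, place 12 at P7 and place 15 at P17. Its neighbours in that order were let-7i-5p (73980 RPM) and miR-181a-5p (49016 RPM) at P1, miR-181b-5p (20576 RPM) and miR-148a-3p (19358 RPM) at P7, and miR-30c-5p (19255 RPM) and miR-148a-3p (16620 RPM) at P17. Of these 6 neighbours, only from miR-148a-3p at P17 did it not differ beyond counting error, with a read ratio of 1.00 (exact 95% binomial interval 0.998 to 1.01).

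MiR-7b-5p, the guide strand of the Mir7b hairpin, followed a different course. Its level was 1740 RPM at P1 (1716 to 1764), followed by 697 at P7 (683 to 711) and, at P17, 1123 (1104 to 1142). It was lowest at P7, and at P17 it lay between the levels of the younger ages. The log2 change was -1.32 between P1 and P7, a 2.49-fold decrease, and 0.69 between P7 and P17, a value under 2-fold. From P1 to P17 it was -0.63 with RPM but 0.41 with either median-of-ratios or TMM factors (normalization factors that centre the typical miRNA), so its direction over the whole period depended on the scaling. It held place 60 of all miRNAs at P1, 79 at P7 and 60 again at P17. Its nearest neighbours above, miR-484 at P1 (1756 RPM) and miR-98-5p at P7 (707 RPM), did not differ from it beyond counting error.

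**Figure D1:**
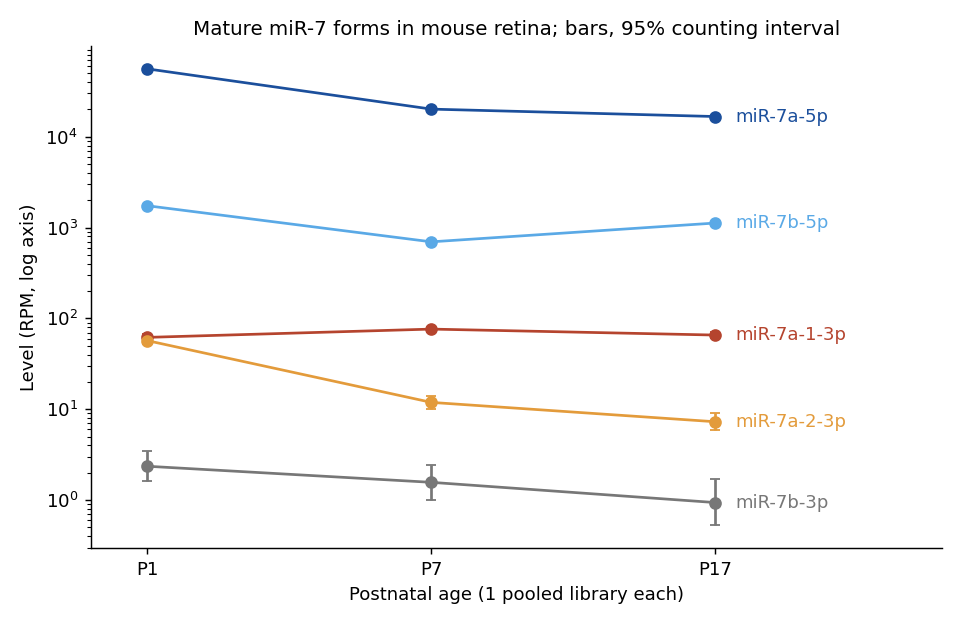
Level of each mature miR-7 form in the retina at P1, P7 and P17 (RPM, log axis; 1 pooled library per age; bars are 95% Wilson intervals of counting error, smaller than the points for both 5p forms). MiR-7a-5p and miR-7a-2-3p dropped mainly before P7, miR-7b-5p was lowest at P7, and miR-7a-1-3p stayed between 61.9 and 76.3 RPM.

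The balance between the guide strands therefore shifted toward miR-7b-5p. Of the reads of both 5p forms, miR-7b-5p took 3.02% at P1 (exact 95% binomial interval 2.98 to 3.06), 3.34% at P7 (3.28 to 3.41) and 6.30% at P17 (6.20 to 6.41). There were 32.1 reads of miR-7a-5p for each read of miR-7b-5p at P1, compared with 28.9 at P7 and 14.9 at P17. The log2 ratio of miR-7a-5p to miR-7b-5p changed by -0.15 between P1 and P7 (95% interval -0.19 to -0.12) and by -0.96 between P7 and P17 (-0.999 to -0.919). Most of this shift thus came after P7. The ratio is independent of the scaling but not of any splitting of reads between these forms, which was not tested.

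The 3p strands, usually the discarded strands of these hairpins, separated the Mir7-1 and Mir7-2 loci. MiR-7a-1-3p, from the hairpin within Hnrnpk, had 61.9 RPM at P1 (57.5 to 66.6), followed by 76.3 at P7 (71.7 to 81.3) and, at P17, 65.6 (61.1 to 70.4). It was highest at P7, by a log2 ratio of 0.30 over P1 (exact 95% binomial interval 0.16 to 0.44). This was under 2-fold with RPM but over it with median-of-ratios (1.24) and TMM factors (1.27). With RPM its levels at P1 and P17 overlapped within counting error, and its log2 ratio between them was 0.08 (exact 95% binomial interval -0.06 to 0.23). From P1 to P17 its change was 1.11 with both median-of-ratios and TMM factors, over 2-fold, and 0.46 with a total without the leading miRNAs. MiR-7a-2-3p, from the hairpin between genes, had 57.0 RPM at P1 (52.8 to 61.5), followed by 11.9 at P7 (10.2 to 14.0) and, at P17, 7.29 (5.90 to 9.01). It was lower at each later age, and its log2(RPM + 1) changed by -2.17 from P1 to P7 and by -2.81 from P1 to P17. Without a pseudocount the P17 level was 7.82-fold below P1 (log2 ratio -2.97, exact 95% binomial interval -3.31 to -2.64).

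These 3p strands thus started at nearly equal levels and ended far apart. MiR-7a-1-3p made up 52.1% of the 1358 miR-7a 3p reads at P1 (exact 95% binomial interval 49.4 to 54.7), 86.5% of 1126 at P7 (84.4 to 88.4) and 90.0% of 850 at P17 (87.8 to 91.9). The log2 ratio of miR-7a-1-3p to miR-7a-2-3p changed by 2.56 between P1 and P7 (95% interval 2.27 to 2.85) and by 0.49 between P7 and P17 (0.08 to 0.90). Among 11 pairs of loci listed in the same way, with both strands past the abundance filter (a mean of at least 1 RPM), with reads at every age and with counts unlike those of any other listed name, the change from P1 to P17 of the miR-7a pair, 3.05, ranked 3 by size. The larger ones were those of miR-135a (-3.92) and miR-125b (-3.48), and the other 8 ranged in size from 0.40 to 2.01. A 3p read shows the strand that was left in the cell and not how much of the shared miR-7a-5p each locus made.

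**Figure D2:**
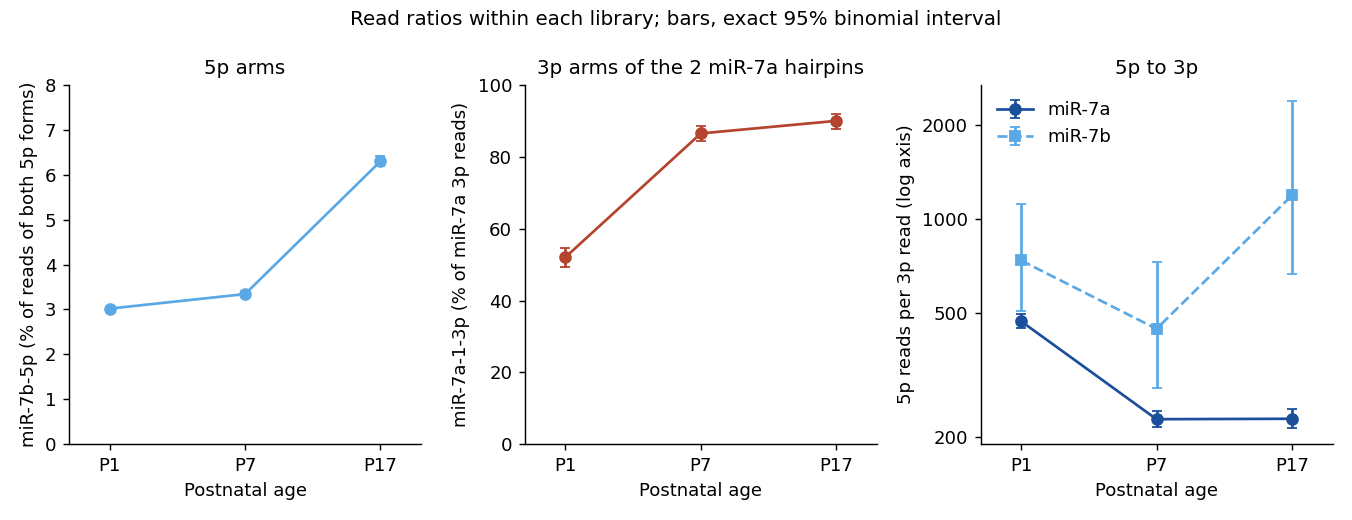
Ratios of reads within each library at P1, P7 and P17: the share of miR-7b-5p among both 5p forms (%), the share of miR-7a-1-3p among the miR-7a 3p reads (%), and 5p reads per 3p read for miR-7a and miR-7b (log axis). Bars are exact 95% binomial intervals of counting error. The share of miR-7a-1-3p went from 52.1% to 86.5% by P7, whereas most of the gain of miR-7b-5p, from 3.34% to 6.30%, came after P7.

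MiR-7b-3p, the discarded strand of Mir7b, was near the limit of the depth, with 27 reads at P1, then 20, and 11 at P17. These correspond to 2.36 RPM (1.62 to 3.44), 1.57 RPM (1.01 to 2.42) and 0.94 RPM (0.53 to 1.69), and the intervals of every pair of ages overlap. It was the least abundant form at every age, below miR-7a-2-3p, miR-7a-1-3p, miR-7b-5p and miR-7a-5p in that order, and each step of this order exceeded counting error except that between miR-7a-2-3p and miR-7a-1-3p at P1. With RPM the log2 ratio from P1 to P17 was -1.32, with an exact 95% binomial interval of -2.48 to -0.27. The size depended on the scaling and the pseudocount. The change of log2(RPM + 1) was -0.79, and with median-of-ratios factors it was -0.16.

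Both kinds of hairpin were strongly one-sided toward the 5p strand. For miR-7a, with the reads of both 3p strands summed, there were 470 reads of 5p for each read of 3p at P1 (446 to 496), 228 at P7 (215 to 242) and 229 at P17 (214 to 245). At P1 only 5 of 189 other hairpins with both strands past the filter were more one-sided than miR-7a, compared with 17 at P7 and 20 at P17. The ratio thus dropped by P7 and then held. Its log2 change was -1.04 from P1 to P7 (95% interval -1.16 to -0.93), below all but 5.29% of the other hairpins. Their median was 0.12, and their middle 90% lay between -1.07 and 1.19. Without the filter it came below all but 9.13% of 263 hairpins. From P7 to P17 the change was 0.0045 (-0.12 to 0.13). From P1 to P17 it was -1.04, below all but 15.9% of the 189. Each of the others was a single pair of 5p and 3p names. MiR-7a sums 2 loci whose 3p strands moved apart before P7, so its ratio describes neither locus alone. The summed miR-7a 3p strands were 119 RPM at P1, compared with 88.2 at P7 and 72.9 at P17, so the 5p strand fell by more than the sum of its 3p partners.

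For miR-7b there were 736 reads of 5p for each read of 3p at P1 (506 to 1118), 445 at P7 (288 to 728) and 1190 at P17 (665 to 2384). The intervals for P1 and P7 overlapped, as did those for P1 and P17. The log2 change was -0.73 between P1 and P7 (95% interval -1.56 to 0.11) and 1.42 between P7 and P17 (0.36 to 2.48), resting on 20 and 11 reads of the 3p strand.

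**Figure D3:**
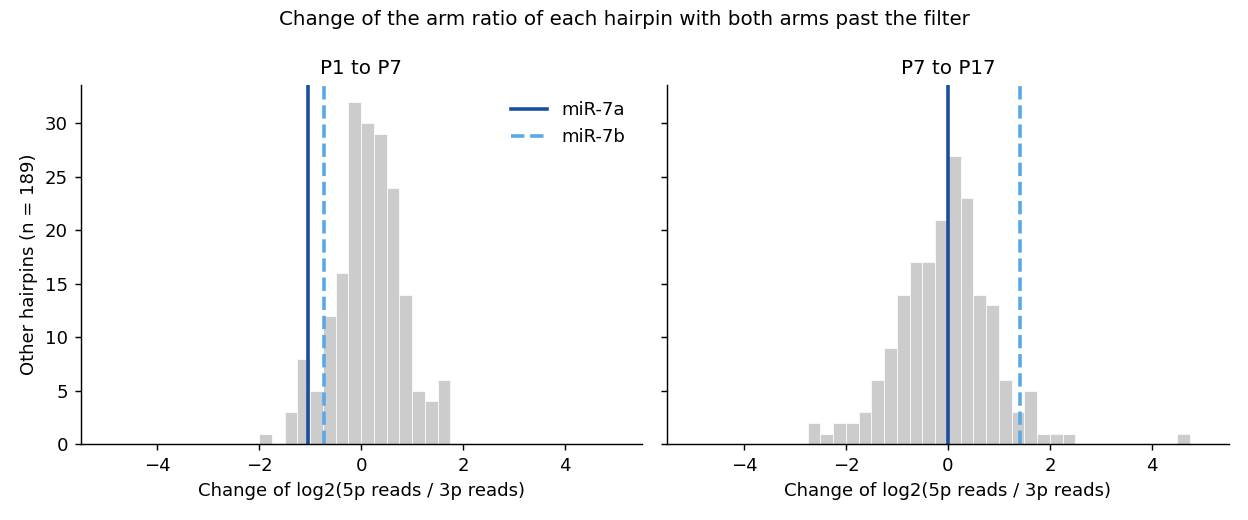
Change of the log2 ratio of 5p to 3p reads in the first (P1 to P7) and the second (P7 to P17) interval. Grey bars count the 189 other hairpins with both strands past the filter, and lines mark miR-7a (-1.04, then 0.0045) and miR-7b (-0.73, then 1.42); miR-7a lies near the low end of the other hairpins in the first interval and at their centre in the second.

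The changes were set against the 648 miRNAs whose mean over the libraries reached 1 RPM, a filter that all 5 members passed. A miRNA was called lower or higher when log2(RPM + 1) differed by over 2-fold, with no test. From P1 to P7, 3 members (miR-7a-5p, miR-7b-5p and miR-7a-2-3p) were called lower and none higher, against 44.8% of all miRNAs called lower and 3.09% called higher (290 and 20 miRNAs). With median-of-ratios factors 71 miRNAs were lower and 62 higher in that step, and with TMM factors 69 and 63. Under both, miR-7a-2-3p was the 1 member called lower and miR-7a-1-3p the 1 called higher. With the reduced total, 149 were lower and 49 higher, and miR-7a-2-3p was the 1 member called. From P7 to P17 no member was called in either direction, against 11.6% lower and 14.0% higher. From P1 to P17, 2 members (miR-7a-5p and miR-7a-2-3p) were called lower and none higher, against 46.8% lower and 10.5% higher. With 5 members these counts are close to the background, and the median change of the members from P1 to P17 was -0.79, against -0.91 for all 648. MiR-7b-3p, at -0.79, and miR-7b-5p, at -0.63, were the members under 2-fold in that comparison, together with miR-7a-1-3p at 0.08.

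Since the typical miRNA moved by -0.91 with RPM, the members were also placed relative to the median of all miRNAs. From P1 to P17, miR-7a-5p lay 0.83 below that median with RPM, and its position was -0.73 to -0.70 with the other 3 scalings. MiR-7a-2-3p lay -1.91 to -1.82 from the median over the 4 scalings, miR-7a-1-3p lay 0.99 to 1.10 above it and miR-7b-5p 0.28 to 0.41 above it. MiR-7b-3p was at 0.12 with RPM and at -0.17 to -0.14 with the others. Before the pseudocount is added, a scaling shifts all miRNAs alike, so the order of the members is largely fixed by construction. With the pseudocount, the rare miR-7b-3p shifted less, from -0.79 with RPM to -0.16 with median-of-ratios factors. The order held under all 4 scalings, whereas the calls did not. With median-of-ratios or TMM factors, miR-7a-5p changed by -0.70 and was no longer called, miR-7a-2-3p changed by -1.82 or -1.81 and was the only member called lower, and miR-7a-1-3p, at 1.11, was called higher.

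**Figure D4:**
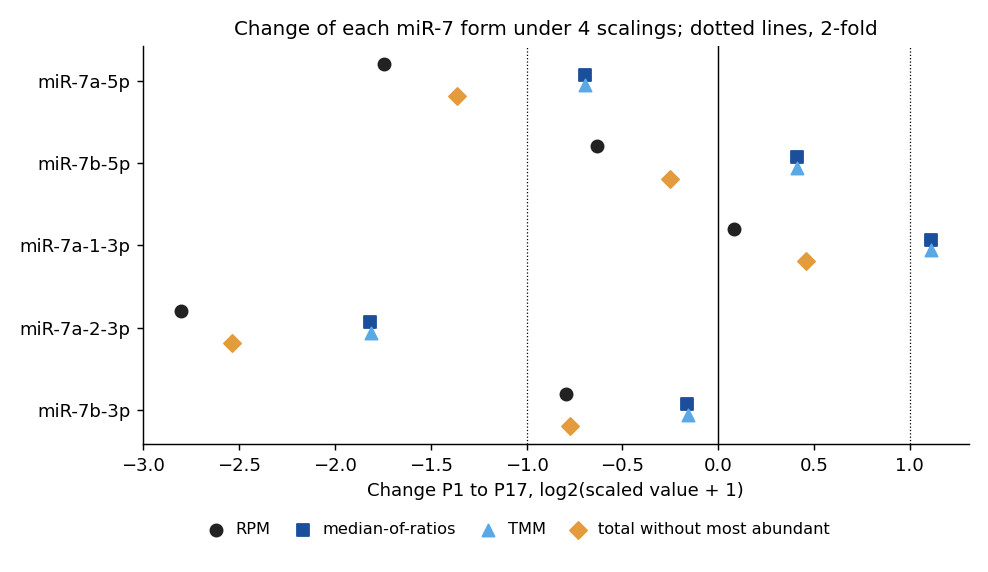
Change of each miR-7 form from P1 to P17 (log2 of the scaled value + 1) with RPM, median-of-ratios factors, TMM factors and a total that leaves out each library's 10 leading miRNAs; dotted lines mark 2-fold. The other scalings lie to the right of RPM for each form, by about the same amount for median-of-ratios and TMM factors. MiR-7b-5p crosses 0 under both of these, and miR-7a-2-3p is past 2-fold lower under all 4.

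Among the 72 miRNAs that averaged 1000 RPM or more, 24 were over 2-fold lower at P17 than at P1 with RPM, and 7 fell more than miR-7a-5p. These 7 were miR-20a-5p, miR-93-5p, miR-92a-3p, miR-130b-5p, let-7i-5p, miR-25-3p and miR-218-5p. The 24 were not recounted with the other scalings. With median-of-ratios factors miR-7a-5p itself changed by -0.70, under 2-fold. Among the 200 other miRNAs that averaged 100 RPM or more, those whose 2 steps were nearest to the steps of miR-7a-5p (Euclidean distance on the log2(RPM + 1) scale, 3 libraries) were miR-872-3p (0.024), miR-5099 (0.11), miR-125b-1-3p (0.14), miR-543-3p (0.17) and miR-134-5p (0.21). MiR-872-3p had 193, 68.9 and 57.9 RPM at P1, P7 and P17.

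**Figure D5:**
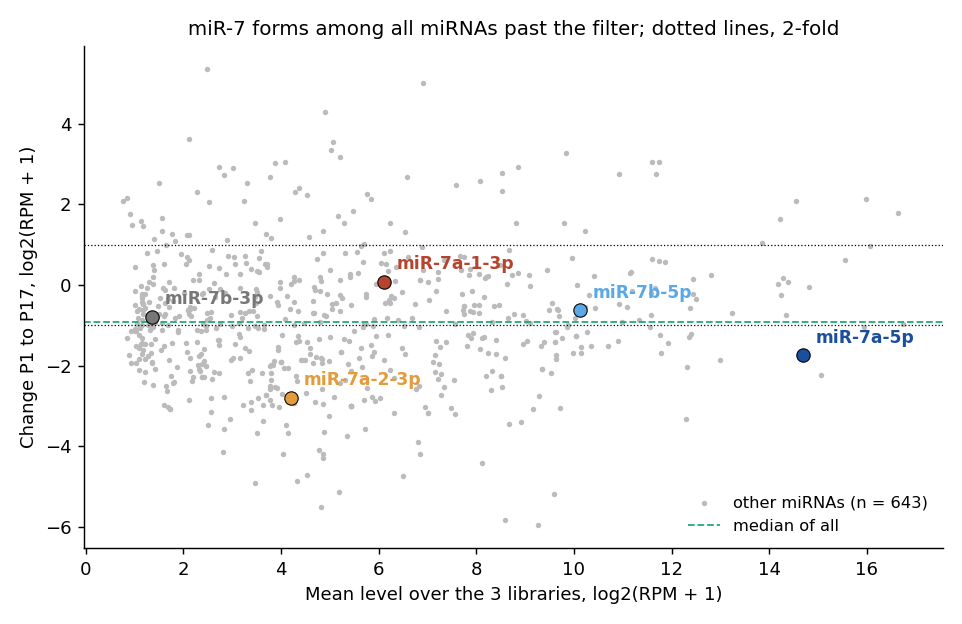
Change from P1 to P17 (log2(RPM + 1)) against the mean level over the 3 libraries for the 648 miRNAs past the filter; coloured points are the 5 miR-7 forms, grey points the other 643, the dashed line the median (-0.91) and the dotted lines 2-fold. MiR-7a-5p (-1.74) and miR-7a-2-3p (-2.81) lie below 2-fold lower, and the members are spread on both sides of the median.

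The family was compared with other abundant families by read ratios, which do not depend on the scaling. There were 30.8 reads of the miR-7 family per 100 reads of let-7 guide strands at P1, 14.7 at P7 and 11.6 at P17. Per 100 reads of miR-9, an abundant neural miRNA counted here with both strands, there were 38.4, 15.9 and 22.9. Per 100 reads of miR-26 there were 64.0, 30.2 and 38.0. Thus the miR-7 family lost ground to all 3 families before P7, with log2 changes of the ratio of -1.06 (95% interval -1.07 to -1.06), -1.27 (-1.28 to -1.26) and -1.09 (-1.09 to -1.08). After P7 the log2 ratio changed by a further -0.35 against let-7, but by 0.52 against miR-9 and 0.33 against miR-26, which themselves had log2 ratios of -0.75 and -0.56 over that step. All of these differences exceed the counting error of the libraries, and no replicate error is known for them.

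Of the miR-7 circuit, miR-671-3p had 101 RPM at P1, compared with 85.5 at P7 and 42.4 at P17, a log2 change of -1.24 from P1 to P17. MiR-671-5p, the strand that targets Cdr1as, was rarer, with 116, 133 and 69 reads, and changed by -0.69, under 2-fold. With RPM both changed mainly after P7, unlike miR-7a-5p, but their timing was not examined with the other scalings. Cdr1as and Cyrano are not miRNAs and were not measured in these libraries.

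Lists of marker miRNAs described the tissue at each age, counted as over 2-fold lower or higher from P1 to P17 with RPM. Of all 648 miRNAs, 46.8% were lower and 10.5% higher by that count. The lists were not counted with the other scalings, which moved most changes. Of 8 neural miRNAs, 2 were lower and 2 higher, among them miR-218-5p (-1.86) and miR-124-3p (3.05). All 3 photoreceptor and sensory miRNAs were higher, and all 5 of the proliferation cluster (miR-17-5p, miR-18a-5p, miR-20a-5p, miR-19b-3p and miR-92a-3p) were lower, with a summed level of 22930 RPM at P1, compared with 8503 at P7 and 2235 at P17. Both endothelial forms of miR-126a and both mural forms (miR-143-3p and miR-145a-5p) were higher, with sums of 1261 and 195 RPM at P1 and 8530 and 1492 RPM at P17. The pigment epithelium miRNAs miR-204-5p (-0.70) and miR-211-5p (3.27) moved apart. MiR-375-3p, an endocrine miRNA that often accompanies miR-7, went from 9.10 to 197 RPM. The remaining lists mark blood, muscle, liver and surface tissues. The erythroid list summed to 46.7 RPM at P1, 12.9 at P7 and 32.3 at P17. Most of it was miR-451a, at -0.69 and not called, whereas miR-144-3p, with 13 reads at P1 and 52 at P17, was called higher. The leukocyte list had at most 18.1 RPM (none of 2 past the filter called). The muscle list had 90.0 to 240 RPM (none of 3 called) and liver miR-122-5p 2.27 to 5.78 RPM (not called). MiR-184-3p, of lens and cornea, went from 101 to 569 RPM, and miR-205-5p of surface epithelium fell from 31 reads to 8. The part of these shifts in the levels of miR-7 was not tested.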

How the data were processed

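Total RNA from pooled C57BL/6 (C57BL/6J per the study's methods) retinas was made into small RNA libraries with the NEBNext kit, 1 per age. The authors trimmed 50-nt reads and, per their methods, aligned them to mm10 with HISAT2, whereas the submitters' processing notes name FastQC and BWA. The miRNA annotation and the counting rule are not given in the sources used here. The authors deposited whole-number read counts per mature miRNA, with no normalization, and RPM values, which equal the count divided by the library's miRNA total to within 0.0192 RPM.

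RPM was used as deposited. Changes are differences of log2(RPM + 1), and calls are over 2-fold among miRNAs that averaged 1 RPM or more. Wilson intervals were used for levels, exact binomial intervals for ratios of 2 read counts, and intervals from summed reciprocal counts for changes of a ratio between libraries. Library ligation favours some sequences, so levels of different miRNAs are compared as reads only. No p-value was computed, since 1 library per age gives no spread between samples. Size factors (644 miRNAs) were 1.50, 0.862 and 0.743, and TMM factors were 1.60, 0.808 and 0.774, at P1, P7 and P17. Other alternatives were pseudocounts, filters, folds, 1 read added to each arm or sum, and miR-7a-5p alone. Another was a total that leaves out each library's 10 leading miRNAs (13 in all, miR-7a-5p among them).

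Members and lists were chosen with earlier results of these data known. Named miRNAs are the members, the 5 nearest to miR-7a-5p in their steps, miRNAs sharing a member's seed, the marker lists, the comparison families and the members' neighbours in level. The pairs of loci, the miRNAs over 1000 RPM, the RPM lost and the sums by seed were added after values were seen. Of 1915 names, 1623 matched a RefSeq mature sequence. Positions are from GENCODE M21 and RefSeq (GRCm38). Calls and intervals were tested on simulated counts that held counting error only. That test does not cover PCR copies, replicate error or a shift of most miRNAs in 1 direction. TMM came from edgeR 4.0.16 in R 4.3.3, and all else from Python 3.11.15 with pandas 2.3.3, numpy 2.4.6, matplotlib 3.10.9 and scipy 1.17.1.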

Additional observations from a re-analysis of the deposited data

How the results depend on the processing

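The scaling moved most changes, each against its RPM value. With median-of-ratios factors, TMM factors and the reduced total, in that order, the change of miR-7a-5p was -0.51, -0.49 and -0.85 between P1 and P7, -0.19, -0.21 and -0.52 between P7 and P17, and -0.70, -0.70 and -1.36 from P1 to P17. That of the summed family was -0.50, -0.48 and -0.84, then -0.14, -0.17 and -0.47, and -0.64, -0.64 and -1.31 over the whole period. That of miR-7b-5p was -0.36, -0.33 and -0.70, then 0.77, 0.75 and 0.44. From P1 to P17 miR-7b-5p turned from -0.63 to 0.41 with median-of-ratios factors and to 0.41 with TMM factors, and gave -0.25 with the reduced total. MiR-7a-1-3p from P1 to P17 was 1.11, 1.11 and 0.46. MiR-7a-2-3p was -1.82 and -1.81 with the first 2 of these and -2.33 with a pseudocount of 5 RPM. Before a pseudocount is added, a scaling shifts all miRNAs alike by construction, whereas a pseudocount shifts rare miRNAs most. The cause was not tested further.

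From P1 to P17, 155 miRNAs were lower and 165 higher with median-of-ratios factors, and 155 and 165 with TMM factors, against 303 and 68 with RPM, so 48.4% of calls were falls against 81.7%. A 4-fold criterion gave 141 and 38. From P1 to P7 the counts were 290 and 20 with RPM, 71 and 62 with median-of-ratios factors, 69 and 63 with TMM factors, and 149 and 49 with the reduced total. With miR-7a-5p alone in place of the family, the ratio to let-7, miR-9 and miR-26 changed by -1.47, -0.80 and -0.81 from P1 to P17, against -1.41, -0.75 and -0.75. The 4 ratios of arms and loci moved by less than their intervals with 1 read added. Of the 5 nearest miRNAs, all were shared with a pseudocount of 0.1 RPM and 4 with a filter of 10 RPM. Of 105 values for the main quantities, 40 moved and 2 more took the other sign, both for miR-7b-5p from P1 to P17. Of 202 values for other quantities, 91 moved. MiR-7b-3p from P1 to P7, -0.39 with RPM and not called, took the other sign with median-of-ratios factors (0.23), TMM factors (0.25) and the reduced total (0.03), all within its counting interval. Values were taken as moved when they left the 95% counting interval, and counts when not within 1.5 times. The depth limits miR-7b-3p, which rests on 11 to 27 reads. No paired analysis was possible because the ages were each sampled with 1 library.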

Other observations

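Summed by seed, the rarer strands of the family largely repeat the comparison of miR-7a-1-3p with miR-7a-2-3p given above. Reads with AACAAGU were mostly miR-7a-2-3p, 651 of 678 at P1 and 85 of 96 at P17. The forms with AACAAGU (miR-7a-2-3p and miR-7b-3p) together had 59.3 RPM at P1, compared with 13.5 at P7 and 8.23 at P17, a log2 ratio of -2.85 from P1 to P17 (exact 95% binomial interval -3.17 to -2.54). The form with AACAAAU (miR-7a-1-3p) had 61.9, 76.3 and 65.6 RPM. Nearly equal at P1, these seeds thus differed at P17.

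MiR-7a-5p was among the miRNAs that gave up most of the read share. Of all RPM lost by miRNAs that were lower at P17 than at P1, it accounted for 10.2%, in place 4 after miR-9-5p (18.3%), let-7i-5p (15.2%) and miR-26a-5p (11.7%). From P1 to P7 it was in place 2, with 12.9%, after let-7i-5p (14.3%). MiR-9-5p, in place 4 over that first step with 6.70%, lost most of its share later, whereas miR-7a-5p lost 35735 of its 39185 RPM by P7. These sums are shares of reads and move with every other abundant miRNA.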
